A study of Mus musculus with 18 samples.

Results

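De novo lipogenesis turns surplus carbohydrate into fatty acids, and 10 genes of that pathway were followed across livers of 18 mice. They were chosen by name, as 7 enzymes (Fasn, Acaca, Acacb, Acly, Scd1, Elovl6 and Me1) and 3 regulators (Srebf1, Mlxipl and Thrsp), and all 10 were found among the 16245 genes of the count table. RNA was sequenced from whole liver of WT C57BL/6 mice (C57BL/6J males by the study's methods) that were put on a NASH diet and housed at about 29 °C from 8 weeks of age. The groups were vehicle (6 mice), GDF15 (6 mice, recombinant protein given once daily under the skin in the morning) and pair-fed (6 mice given the food that GDF15-treated mice had eaten the day before). All 3 groups therefore shared the diet, the warm housing and the genotype, and the labels list GDF15 doses from 0.3 to 5 nmol per kg without the dose of each mouse. The study's text and figure legends name different doses for the liver libraries, so none is given here. GDF15 is a hormone released under cellular stress that reduces appetite, and the pair-fed group asks what remains once intake is matched.

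In the liver, citrate that leaves mitochondria is split to acetyl-CoA, carboxylated to malonyl-CoA and built into palmitate, which is then elongated and desaturated before it enters triglycerides. Insulin drives the pathway through the transcription factor SREBP-1c, and glucose and fructose drive it through ChREBP, so that transcripts of its enzymes rise after feeding and fall during fasting. A fatty liver on a diet rich in fat and fructose is known for high activity of this pathway.

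Promoter sequences are shown for the regulator that passed the test in both GDF15 comparisons (Mlxipl, which has 2 annotated starts) and for a pair of enzymes with wide differences between livers (Fasn and Acly). RefSeq (GRCm38.p6) listed 13 starts for 9 of the 10 genes, and each window holds the 250 bases before a start, 5′ to 3′ on the strand of the gene. Capitals mark matches, on either strand, to CCAAT (the box bound by NF-Y), CACGTG (an E-box), GGGCGG (a GC box bound by Sp1) or TCACNCCAC (a sterol element of the kind bound by SREBP). In Fasn the run of 8 capitals is a pair of overlapping CCAAT matches on opposite strands.
Mlxipl, first start, chr5:135089640-135089889, plus strand: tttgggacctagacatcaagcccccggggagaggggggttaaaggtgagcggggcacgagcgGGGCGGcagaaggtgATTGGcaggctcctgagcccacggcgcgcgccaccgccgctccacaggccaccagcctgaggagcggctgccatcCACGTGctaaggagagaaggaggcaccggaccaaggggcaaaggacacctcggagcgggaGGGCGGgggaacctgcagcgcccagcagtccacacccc
Mlxipl, second start, chr5:135106641-135106890, plus strand: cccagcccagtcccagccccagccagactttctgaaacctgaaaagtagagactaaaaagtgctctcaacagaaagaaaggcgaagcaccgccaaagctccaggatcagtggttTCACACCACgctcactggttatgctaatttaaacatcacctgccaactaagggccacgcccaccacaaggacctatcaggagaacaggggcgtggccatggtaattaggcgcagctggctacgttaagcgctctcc
Fasn, chr11:120824548-120824797, minus strand: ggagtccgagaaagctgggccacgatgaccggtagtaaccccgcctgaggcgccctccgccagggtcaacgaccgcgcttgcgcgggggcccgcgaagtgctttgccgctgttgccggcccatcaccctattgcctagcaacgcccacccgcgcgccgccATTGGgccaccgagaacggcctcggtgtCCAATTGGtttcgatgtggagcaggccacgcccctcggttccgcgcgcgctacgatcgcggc
Acly, chr11:100528001-100528250, minus strand: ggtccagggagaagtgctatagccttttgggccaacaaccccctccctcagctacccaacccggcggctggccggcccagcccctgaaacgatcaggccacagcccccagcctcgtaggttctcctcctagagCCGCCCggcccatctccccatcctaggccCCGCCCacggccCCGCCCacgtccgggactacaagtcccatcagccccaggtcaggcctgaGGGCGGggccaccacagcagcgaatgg

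The first Mlxipl window lies directly before the annotated gene, and the second lies 17001 bases downstream, inside it. The first holds 1 CCAAT match, 1 CACGTG match and 2 GGGCGG matches, and the second holds the only TCACNCCAC match of the 13 windows. Fasn holds 3 CCAAT matches at 90, 62 and 59 bases before its start, and Thrsp holds 2. Acly holds 4 GGGCGG matches and no CCAAT. Over all 13 windows, CCAAT was found in 7, GGGCGG in 5 and CACGTG in 1. Among all 32851 promoter windows of the same length, 33.8% held CCAAT, 32.7% GGGCGG, 6.02% CACGTG and 1.05% TCACNCCAC. The counts used here are per gene, so transcripts from the separate starts of Mlxipl or of Srebf1 were not told apart.

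Libraries held 16508864 to 35301853 counts, and the lowest count of any of the 10 genes in any liver was 2794, so counting error was small beside the differences between livers. Values below are DESeq2 normalized counts (counts divided by a size factor for each library) unless another scale is named. Hepatocyte markers such as Alb were high in all 18 libraries, and the adipocyte-defining genes Adipoq, Retn and Plin1 had at most 1, 2 and 4 counts in any library. Among 7 hepatocyte markers, 5 rose with GDF15 in each GDF15 comparison, beside 15.8% (vehicle) and 13.3% (pair-fed) of all genes tested. In bulk tissue, fewer cells of a type and less RNA per cell cannot be told apart.

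The order of levels was compared per kilobase of the longest annotated coding transcript, in vehicle livers. Scd1, the desaturase that makes oleate, stood far above the rest with 87261 ± 20383 normalized counts per kilobase (SD, n = 6), which was 12.7 times the level of the next gene. Thrsp followed with 6881 ± 2707. Fasn (4129 ± 1341), Me1 (3597 ± 695) and Acly (3304 ± 971) came next, and neighbours among them differed by less than either SD. The same held for Mlxipl (1809 ± 291) and Srebf1 (1618 ± 198), and for Elovl6 (788 ± 221) and Acacb (686 ± 136). Acaca was lowest (541 ± 115), below Acacb by slightly more than either SD. Scd1 alone took 1.1% to 2.61% of all counts in a library.

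Of the 10 genes, 1 was called higher with GDF15 than with vehicle (DESeq2 Wald test, adjusted p under 0.05 over all genes) and none was called lower. This comparison called 33.3% of the 14667 genes tested (15.8% higher, 17.5% lower). Against pair-fed livers the same gene, Mlxipl, was called higher and none lower, with 27.1% of 14353 genes called (13.3% higher, 13.8% lower). None of the 10 had an absolute log2 fold change above 1 in addition, a rule met by 6.27% of genes against vehicle and 3.37% against pair-fed. Between pair-fed and vehicle livers none of the 10 was called, and neither was any of the 16242 genes tested (0%), whereas 718 genes had an unadjusted p under 0.05 and the quasi-likelihood test of edgeR also called 0. The median log2 fold change of the 10 genes was 0.25 against vehicle and 0.012 against pair-fed, and that of all genes was −0.0020 and −0.0054. Both GDF15 comparisons use the same GDF15 livers. No gene of the 10 had groups that did not overlap, and the share of all genes without overlap is not given here.

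**Figure D1:**
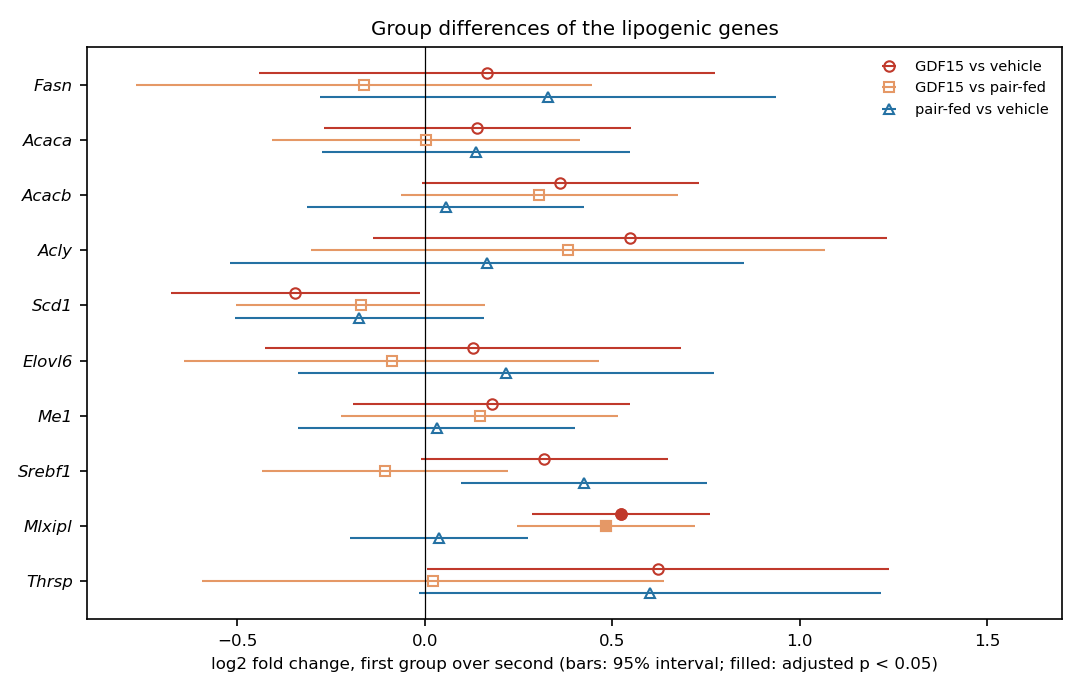
Log2 fold change (x axis) of each lipogenic gene (y axis) in the 3 comparisons, with 95% intervals as bars and filled symbols for an adjusted p under 0.05. The only filled symbols are those of Mlxipl, at 0.52 against vehicle and 0.48 against pair-fed.

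Among the regulators, Mlxipl encodes ChREBP, the glucose-responsive transcription factor of glycolytic and lipogenic genes (chr5:135089890-135138382, plus strand, GRCm38). Vehicle livers ranged from 5746 to 8429 normalized counts with a median of 6240. GDF15 livers ranged from 7940 to 11590 with a median of 8907, and pair-fed livers from 5729 to 8194 with a median of 6665. Thus 4 of 6 GDF15 livers lay above every vehicle liver and 4 of 6 above every pair-fed liver, and the other two overlapped with the highest controls. Mlxipl was higher with GDF15 by 0.52 ± 0.12 (log2 fold change ± SE, 1.44-fold, DESeq2 adjusted p = 0.000163) against vehicle and by 0.48 ± 0.12 (1.40-fold, adjusted p = 0.00069) against pair-fed. Exact two-sided permutation of the livers gave p = 0.00649 in both comparisons, unadjusted. Pair-fed and vehicle livers differed by 0.039, with a 95% interval from −0.20 to 0.28.

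Most hepatocyte markers rose as well, by unequal amounts. Against vehicle, Apob (0.028) and Ttr (0.17) were not called, and the 5 that rose ran from 0.40 for Apoa1 to 1.06 for Cps1. Alb, the main secreted protein of hepatocytes, rose by 0.42 ± 0.11 and Hnf4a, a hepatocyte transcription factor, by 0.54 ± 0.064 against vehicle (adjusted p = 0.00108 and 3.93e-15, DESeq2). When the size factors were taken from the 7 hepatocyte markers, a scaling that lowered all genes nearly alike and moved their median to −0.43 against vehicle and −0.47 against pair-fed, the Mlxipl differences were 0.097 (adjusted p = 0.4985) and 0.016 (adjusted p = 0.9135). On that scale, chosen after seeing the data, Scd1 was called lower against vehicle (−0.79, adjusted p = 2.455e-06), and Fasn, Acaca, Scd1, Elovl6 and Srebf1 were called lower against pair-fed.

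Srebf1, which encodes SREBP-1, the insulin-responsive activator of lipogenic genes (chr11:60199089-60222581, minus strand), varied most among pair-fed livers. Vehicle livers lay close together, from 5440 to 7731 with a median of 7321. GDF15 livers ranged from 6611 to 10329 (median 8947) and pair-fed livers from 5403 to 12881 (median 8985). Both the lowest and the highest of all 18 livers were pair-fed. The differences from vehicle were 0.32 ± 0.17 with GDF15 (adjusted p = 0.13, DESeq2) and 0.42 ± 0.17 with pair-feeding (unadjusted p = 0.0113, adjusted p = 0.998), and neither passed. GDF15 and pair-fed livers differed by −0.11, with a 95% interval from −0.43 to 0.22. Fitted with only the 12 livers compared, the GDF15 difference from vehicle in Srebf1 was called (adjusted p = 0.0245, DESeq2).

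Thrsp encodes THRSP (Spot 14), a small protein that responds to thyroid hormone and carbohydrate and promotes lipogenesis (chr7:97412938-97417730, minus strand). Its vehicle livers ranged from 5478 to 13750 (median 8046), its GDF15 livers from 7622 to 20667 (median 12821) and its pair-fed livers from 6594 to 18342 (median 13534). Against vehicle it was 0.62 ± 0.31 with GDF15 (adjusted p = 0.114, DESeq2) and 0.60 ± 0.31 with pair-feeding (adjusted p = 0.998), so the means of both groups were 1.54-fold and 1.52-fold that of vehicle and neither difference passed. GDF15 and pair-fed livers differed by 0.021 with a wide 95% interval from −0.60 to 0.64.

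**Figure D2:**
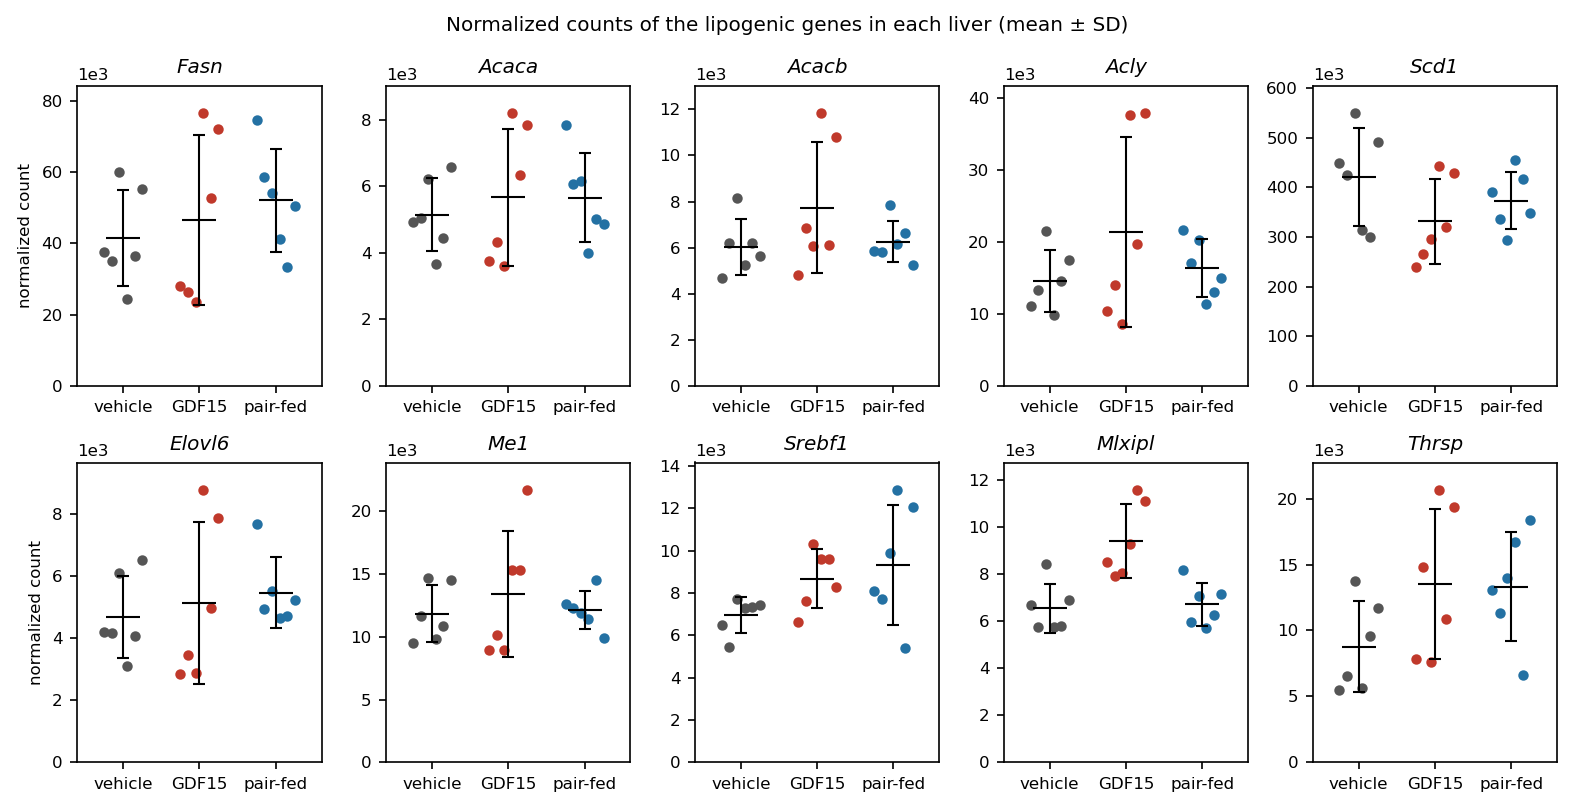
Normalized counts (y axis) of the 10 genes in each liver (points, n = 6 per group), with the group mean and SD in black. GDF15 livers of Fasn run from 23624 to 76549 and those of Acly from 8640 to 37879, around group means whose differences from the controls did not pass the test.

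Fasn encodes fatty acid synthase, which builds palmitate from malonyl-CoA (chr11:120805846-120824547, minus strand). In GDF15 livers 1 to 6 its normalized counts were 27959, 26389, 23624, 76549, 52782 and 72117. Vehicle livers spanned 24277 to 59986 (median 37170) and pair-fed livers 33336 to 74723 (median 52439). The GDF15 livers thus held both the lowest and the highest value of the 18, with livers 1 to 3 low and livers 4 to 6 high. The log2 fold change was 0.17 ± 0.31 against vehicle and −0.16 ± 0.31 against pair-fed (adjusted p = 0.721 and 0.74), with 95% intervals from −0.44 to 0.77 and from −0.77 to 0.45.

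The acetyl-CoA carboxylases make malonyl-CoA, Acaca (chr11:84129672-84401651, plus strand) mostly for synthesis in the cytosol and Acacb (chr5:114146535-114250761, plus strand) at the mitochondrial surface, where malonyl-CoA restrains fatty acid oxidation. Acaca was 3766, 4332, 3599, 8195, 6330 and 7830 in GDF15 livers 1 to 6, against 3668 to 6584 in vehicle and 4009 to 7854 in pair-fed livers. Its mean difference was 0.14 ± 0.21 against vehicle and 0.0031 ± 0.21 against pair-fed. Acacb was 4795, 6871, 6077, 11832, 6099 and 10782 in the GDF15 livers, against 4700 to 8164 in vehicle and 5255 to 7866 in pair-fed livers. Only GDF15 livers 4 and 6 lay above all controls for Acacb, and the mean differences were 0.36 ± 0.19 (adjusted p = 0.127, DESeq2) and 0.31 ± 0.19 (adjusted p = 0.228).

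Acly, the ATP-citrate lyase that supplies cytosolic acetyl-CoA (chr11:100476353-100528000, minus strand), spanned the widest range. GDF15 livers 1 to 6 had 10453, 14023, 8640, 37598, 19708 and 37879 normalized counts, a 4.38-fold range, whereas vehicle livers spanned 9827 to 21453 (2.18-fold) and pair-fed livers 11383 to 21609 (1.90-fold). Livers 4 and 6 lay above every control and liver 3 lay below every control. The mean difference was 0.55 ± 0.35 against vehicle and 0.38 ± 0.35 against pair-fed (adjusted p = 0.225 and 0.445, DESeq2).

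Me1, the cytosolic malic enzyme that makes NADPH for fatty acid synthesis (chr9:86581371-86695953, minus strand), had 8952, 10120, 8968, 15324, 15337 and 21699 normalized counts in GDF15 livers 1 to 6. Vehicle livers spanned 9491 to 14715 and pair-fed livers only 9882 to 14503. In GDF15 livers, 3 lay above and 2 below all vehicle livers, and the mean difference was 0.18 ± 0.19 against vehicle and 0.15 ± 0.19 against pair-fed.

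Elovl6 elongates palmitate to stearate (chr3:129532355-129638495, plus strand). Its GDF15 livers 1 to 6 had 2855, 3448, 2860, 8765, 4979 and 7851 normalized counts, with 2 above and 2 below all vehicle livers, which spanned 3110 to 6496. Pair-fed livers spanned 4635 to 7677. The mean difference was 0.13 ± 0.28 against vehicle and −0.088 ± 0.28 against pair-fed, and the latter turned positive without any of GDF15 livers 1, 2 and 3 or pair-fed liver 1.

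Scd1 (chr19:44394455-44407879, minus strand) was the only one of the 10 with a lower mean in GDF15 than in vehicle livers. Vehicle livers ranged from 299316 to 549384 (median 437576), GDF15 livers from 239037 to 443780 (median 307383) and pair-fed livers from 293163 to 454250 (median 370302). GDF15 livers 1 to 3 lay below every vehicle liver, and livers 4 to 6 within the vehicle range. The difference of −0.34 ± 0.17 had an unadjusted p of 0.042 and did not pass the adjustment (adjusted p = 0.103, DESeq2). It did pass without vehicle liver 5, GDF15 liver 4 or GDF15 liver 6 (−0.43, −0.44 and −0.43, with adjusted p = 0.0415, 0.0289 and 0.0434). Against pair-fed livers it was −0.17 ± 0.17, and pair-fed livers stood −0.17 ± 0.17 from vehicle.

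The spread between livers was then measured as the SD of log2(normalized count + 1) within each group. The median SD of the 10 genes was 0.53 in GDF15 livers, 0.33 in vehicle livers and 0.30 in pair-fed livers, beside 0.18, 0.15 and 0.17 for all 13207 genes that reached 10 counts in 6 or more libraries. Acly had an SD of 0.91 in GDF15 livers, against 0.42 in vehicle and 0.36 in pair-fed livers, and 2.29% of all genes had an SD at least as large in the GDF15 group. Fasn (0.77, against 0.48 and 0.41) and Elovl6 (0.72, against 0.40 and 0.27) followed, and 3.92% and 4.67% of genes reached their GDF15 values. Acaca, Me1 and Acacb had SDs of 0.53, 0.52 and 0.51 in GDF15 livers.

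The SD was larger in GDF15 than in vehicle livers for all 10 genes (8177 of all 13207 genes) and larger than in pair-fed livers for 9 of 10 (7467 of all genes). In an exact two-sided permutation test of the mean absolute deviation from the group median, Acaca (p = 0.0455) and Me1 (p = 0.039) had an unadjusted p under 0.05 against vehicle. Against pair-fed livers, the same exact test gave Fasn (p = 0.0325), Acly (p = 0.0498), Elovl6 (p = 0.0216) and Me1 (p = 0.00216, the smallest value it can give). The background of genes that were wider with GDF15 at that unadjusted threshold was 4.65% against vehicle and 3.8% against pair-fed. The enzymes varied together among GDF15 livers (median Pearson r of 0.92 over 21 pairs), so these genes are not independent counts. The genes and the measure of spread were chosen with earlier results of these data known, so these counts are a description. None of the 10 passed after adjustment over all genes (lowest adjusted p = 0.753 against vehicle and 0.321 against pair-fed), and no gene of the table did in either comparison.

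The regulators and Scd1 showed other patterns of spread, and no test compared regulators with enzymes. Mlxipl had SDs of 0.24, 0.22 and 0.19 in GDF15, vehicle and pair-fed livers, which were close to each other and near the median of all genes. Srebf1 was most variable in pair-fed livers (0.46, against 0.24 with GDF15 and 0.19 with vehicle), and the exact test of pair-fed against vehicle spread gave p = 0.0649. Thrsp varied widely in all 3 groups (0.63, 0.57 and 0.53). Scd1 had nearly the same SD with GDF15 and vehicle (0.36 and 0.35).

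**Figure D3:**
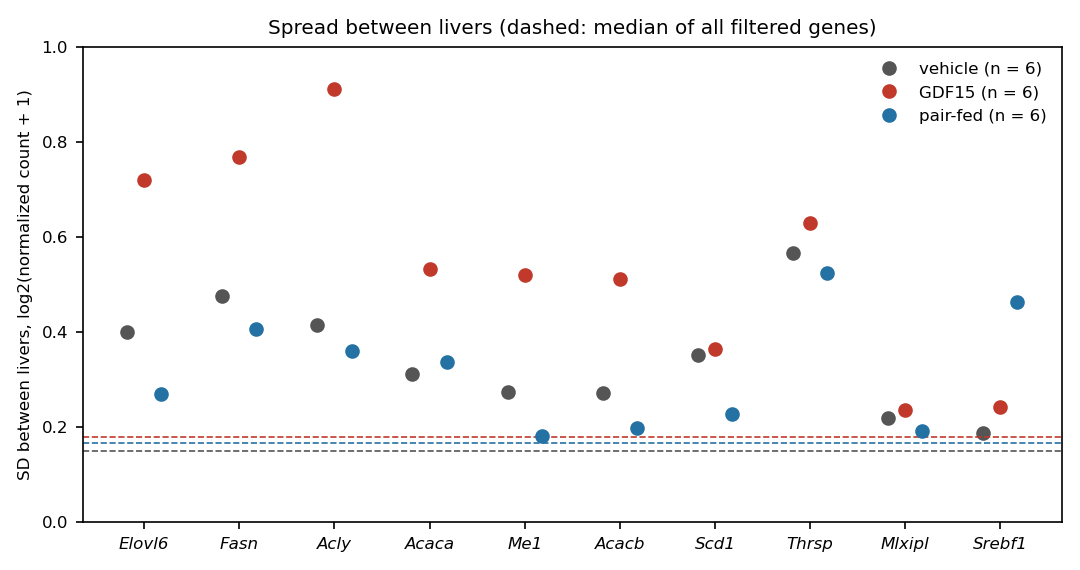
SD between the 6 livers of each group on the log2(normalized count + 1) scale (y axis) for each gene (x axis), with the median SD of 13207 genes as a dashed line per group. The GDF15 points stand highest for Elovl6, Fasn, Acly, Acaca, Me1 and Acacb (0.51 to 0.91), and the pair-fed point stands highest for Srebf1 (0.46).

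In vehicle and GDF15 livers, the enzymes were high or low in the same livers. In pair-fed livers this held among Fasn, Acaca, Acly and Elovl6, with Pearson r from 0.80 (Acly with Elovl6) to 0.94 (Acaca with Acly). It did not hold there for pairs with Acacb, Scd1 or Me1. Over the 21 pairs of enzymes (n = 6 livers, described without a test), the median Pearson r was 0.84 in vehicle, 0.92 in GDF15 and 0.099 in pair-fed livers, and 21, 21 and 13 pairs were positive. In vehicle liver 3 all 10 genes were above the group mean, and in vehicle liver 4 only 1 was. GDF15 liver 1 had none of the 10 above its group mean, GDF15 livers 2 and 3 had 1 each, and GDF15 livers 4 and 6 had 9 each. The exceptions were Thrsp in liver 2, Srebf1 in livers 3 and 6, and Mlxipl in liver 4. Pair-fed livers had 3 to 8 of the 10 genes above the group mean in each. There, liver 1 had the highest Fasn (74723), Elovl6 (7677) and Acly (21609), whereas Srebf1 and Thrsp were highest in livers 4 and 6 (Srebf1 12881 and 12067, Thrsp 16671 and 18342), whose Fasn was 41119 and 50578.

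**Figure D4:**
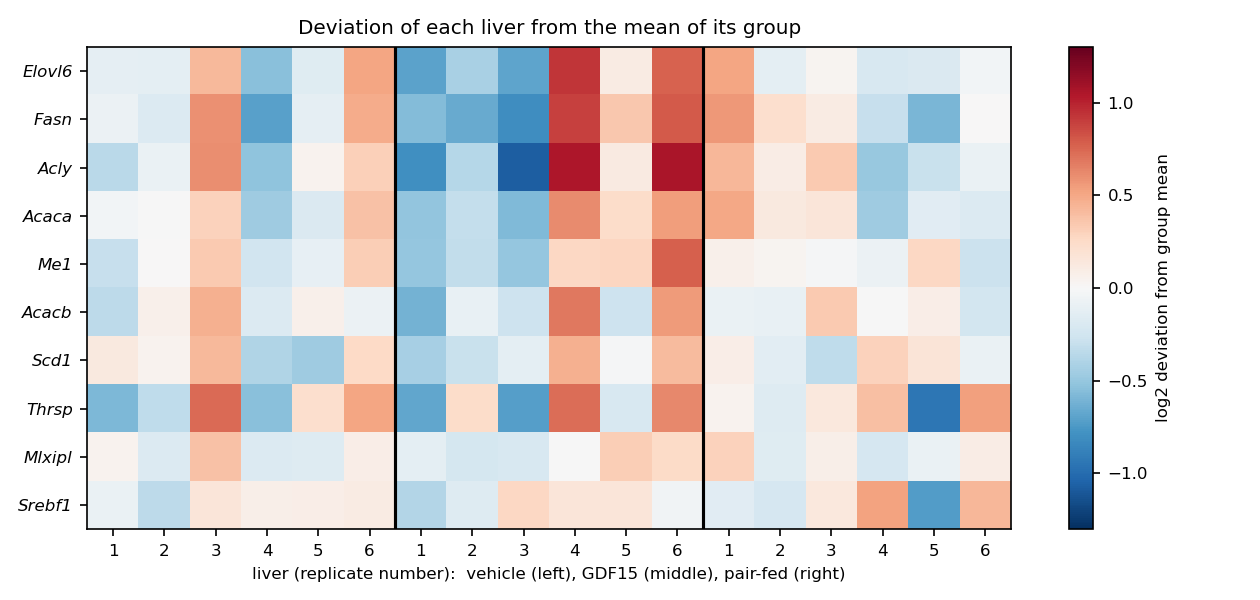
Deviation of each liver (columns, by replicate number within group) from its group mean in log2(normalized count + 1), for the 10 genes (rows), from blue (below) to red (above). GDF15 livers 4 and 6 are red and livers 1 to 3 blue for Elovl6, Fasn and Acly, while the rows of Mlxipl and Srebf1 are paler.

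Over all 18 livers, with group means removed, Elovl6 tracked the mean standardized deviation of the 10 genes most closely (Pearson r = 0.97, n = 18), followed by Fasn (0.95), Acly (0.94) and Acaca (0.90). Srebf1 followed it least (0.29). Each gene is part of that mean, so these values describe the set and were not tested. Among 10873 other genes with a mean of at least 50 normalized counts, the 8 most like it were Slc25a44 (0.93), Rnf103 (0.92), Pnpla3 (0.88), Pnpla5 (0.87), Gmps (0.87), Pdhb (0.87), Chrna4 (0.87) and Dnajc22 (0.86). Pnpla3, a lipid droplet protein with lipase and acyltransferase activity, ranged from 69.2 to 641 normalized counts in GDF15 livers, against 70.4 to 264 in vehicle livers. Pdhb, a subunit of pyruvate dehydrogenase, ranged only from 2325 to 3582 in GDF15 livers.

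Relations of the 3 regulators with the 7 enzymes were tested in the 12 vehicle and pair-fed livers, as deviations from the group mean and with permutation within group (100000 draws, adjusted over 21 relations). Mlxipl and Elovl6 were related (Pearson r = 0.82, permutation p = 0.00095, adjusted p = 0.02, and Spearman rho = 0.85, adjusted p = 0.0277, n = 12). Without the 2 livers farthest from the Mlxipl median, r was 0.66, the adjusted permutation p was 0.0769 and the relation was not called. Leaving them out also gives fewer livers and a narrower range of Mlxipl, so this cannot tell what the call rested on. For Mlxipl with Fasn, Acly and Acaca, r was 0.76, 0.75 and 0.74 and the adjusted permutation p was 0.0516 in each case. The relations of Mlxipl with Acacb, Scd1 and Me1 did not pass either. For these, r was 0.54, 0.83 and 0.67 in vehicle livers but −0.064, −0.32 and −0.13 in pair-fed livers (n = 6 each, not tested). Srebf1 gave r between −0.35 (Me1) and 0.20 (Fasn), and none of its 7 relations passed (lowest adjusted permutation p = 0.522). The groups pooled here differed, since the median r of Srebf1 with the enzymes was 0.32 in vehicle and −0.14 in pair-fed livers, and that of Thrsp was 0.84 and −0.14 (n = 6 each, not tested). Thrsp and Fasn gave r = 0.66 (adjusted permutation p = 0.133). With all 18 livers, 9 of 21 relations passed, 5 of Mlxipl (Fasn, Acaca, Acly, Elovl6 and Me1), 4 of Thrsp (Fasn, Acacb, Acly and Elovl6) and none of Srebf1.

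**Figure D5:**
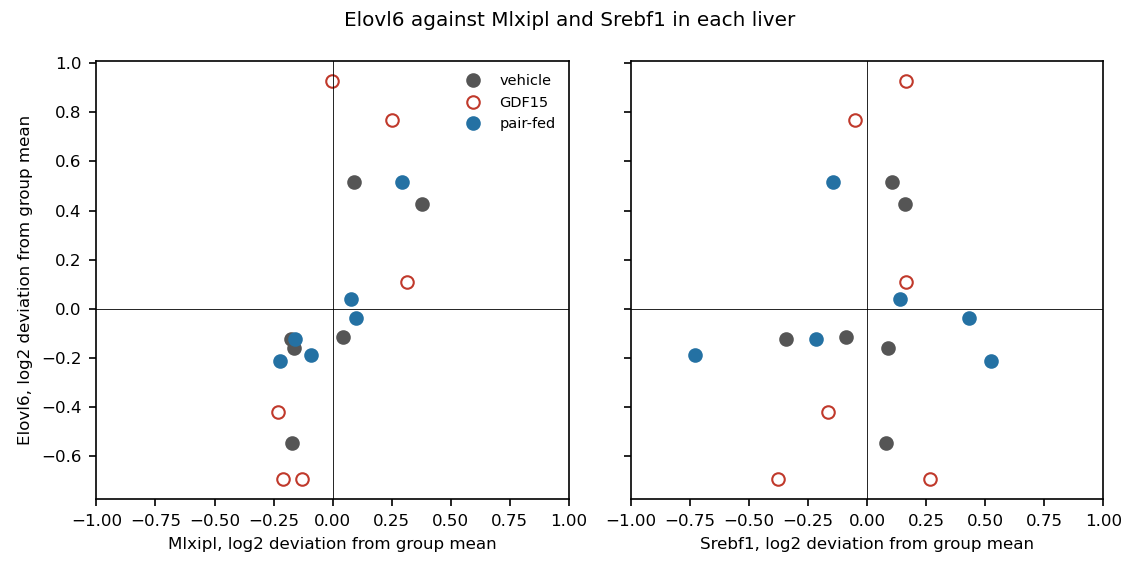
Deviation of Elovl6 from its group mean (y axis, log2) against that of Mlxipl (left) and Srebf1 (right) in each liver, with vehicle and pair-fed livers filled and GDF15 livers open. Elovl6 rises with Mlxipl over the 12 filled points (r = 0.82) and shows no such order with Srebf1 (r = 0.072).

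For the gene lists and cell markers below, the shares over all genes tested were 15.8% higher and 17.5% lower against vehicle. Against pair-fed they were 13.3% higher and 13.8% lower. Several list counts lie near these shares. Genes that feed the pathway moved in both directions. Of 9 genes for acetyl-CoA and NADPH supply, 3 rose and 2 fell against vehicle (median 0.090), and 1 rose and 3 fell against pair-fed (median 0.073). Acss2, which makes acetyl-CoA from acetate, rose by 0.85 ± 0.27 against vehicle (adjusted p = 0.00858, DESeq2). Idh1 rose in both comparisons, by 0.20 ± 0.060 in each, and Mdh1 against vehicle, by 0.18. Tkt and Taldo1, enzymes of the non-oxidative pentose phosphate pathway, fell in both, by 0.38 and 0.33 against vehicle. Among genes for glucose and fructose entry, Gckr rose by 0.19 ± 0.065 against vehicle (adjusted p = 0.0146, DESeq2). Pklr, which encodes the pyruvate kinase of liver and is a classic target of the lipogenic regulators, differed from vehicle by −0.039 ± 0.12 and was not called.

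Of 7 genes for SREBP processing, Scap, the sterol-sensing escort of SREBP, rose by 0.64 ± 0.16 against vehicle (adjusted p = 0.000376, DESeq2) and by 0.51 ± 0.16 against pair-fed (adjusted p = 0.0067). Insig2, which retains SCAP in the endoplasmic reticulum, fell by 0.60 ± 0.24 against vehicle only (adjusted p = 0.0356), and its difference from pair-fed livers was −0.50 ± 0.24 (adjusted p = 0.0987). Insig1 differed from vehicle by 0.50 ± 0.21 without being called, and its GDF15 livers 1 to 6 had 9278, 7566, 10306, 19746, 16769 and 17953 normalized counts.

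Of 12 genes for receptors and cofactors of lipogenic promoters, 7 rose and 0 fell against vehicle (Nr1h3, Nr1h2, Rxra, Mlx, Usf2, Sp1 and Ppargc1b, median of the list 0.22), and 5 rose and 1 fell against pair-fed (median 0.21). Nr1h3, which encodes the oxysterol receptor LXR-alpha, rose by 0.23 ± 0.049 against vehicle. Mlx, the dimer partner of ChREBP, rose by 0.21 ± 0.067 against vehicle (adjusted p = 0.00896, DESeq2), and its difference from pair-fed livers was 0.065 ± 0.067. Nfya was the gene that fell against pair-fed, by 0.29 ± 0.097. Of 11 genes for insulin and AMPK signalling, 4 rose against vehicle (Insr, Akt2, Stk11 and Mid1ip1) and 5 against pair-fed (Insr, Irs2, Akt2, Foxo1 and Stk11), with 0 lower in either. Mid1ip1, a partner of THRSP that promotes polymerization of acetyl-CoA carboxylase, rose by 0.42 ± 0.17 against vehicle and stood at −0.043 ± 0.17 against pair-fed.

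Of 12 genes for fatty acid modification and glycerolipid synthesis, 2 rose and 2 fell in each GDF15 comparison. Lpin1, a phosphatidate phosphatase, rose by 1.32 ± 0.41 against vehicle and 1.18 ± 0.41 against pair-fed (adjusted p = 0.00641 and 0.0198, DESeq2). Dgat2, which completes triglyceride synthesis, rose by 0.54 ± 0.12 and 0.34 ± 0.12. Scd2, a second desaturase, fell by 1.03 ± 0.24 and 0.96 ± 0.24. Elovl5 fell against vehicle and Fads2 against pair-fed. In none of these lists, nor in the fasting and clock lists that follow, did a gene pass between pair-fed and vehicle livers.

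Genes induced by fasting moved apart. Of 12, 4 rose and 2 fell in each GDF15 comparison. Pck1 and Tat, for gluconeogenesis and amino acid breakdown, rose by 0.88 ± 0.29 and 1.40 ± 0.44 against vehicle, and Ppargc1a, a coactivator, by 0.77 ± 0.23. Pdk4, which blocks pyruvate dehydrogenase, and the hormone gene Fgf21 fell by 1.41 ± 0.45 and 0.96 ± 0.28. Cyp4a14 rose against vehicle, and Igfbp1 was called against pair-fed, barely under the threshold (1.31 ± 0.53, DESeq2 adjusted p = 0.04998). Exact permutation of the livers gave p = 0.221 for Igfbp1 against pair-fed, unadjusted. Its difference from vehicle was of similar size and was not called (1.13 ± 0.53, DESeq2 adjusted p = 0.0861).

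Several of these genes ran with the lipogenic enzymes among GDF15 livers. Igfbp1 had 1198, 936, 630, 9044, 2772 and 3797 normalized counts in livers 1 to 6, and Ppargc1a 259, 231, 217, 737, 417 and 328, so that livers 4 to 6 were high for both, as they were for Fasn. Cpt1a, the entry enzyme of mitochondrial fatty acid oxidation, ran the other way (12104, 13664, 12960, 9033, 9266 and 8820). Clock genes also differed between these livers. Arntl, the clock activator BMAL1, had 93.6, 55.8, 27.6, 191, 218 and 182 normalized counts in livers 1 to 6, and its output gene Dbp had 2885, 4516, 5696, 1616, 1637 and 2694. Of 13 clock genes, 3 rose against vehicle (Cry1, Cry2 and Nr1d1) and 2 against pair-fed (Cry2 and Nr1d1), and 0 fell. In pair-fed livers 1 to 6, Arntl was 273, 171, 55.7, 12.4, 88.9 and 58.2. Macrophage markers ran against the lipogenic genes, with r between −0.59 and −0.47 to the mean deviation of the 10 genes for all 6 markers (n = 18, a description). The 5th percentile of r over all 13207 genes was −0.57. Some stellate cell markers also ran against the lipogenic genes, with r from −0.53 (Dcn) to 0.056 (Des). Lyz2, a lysozyme of macrophages, had 1171, 986, 1030, 683, 821 and 533 normalized counts in GDF15 livers 1 to 6, and the part of these cells in the spread was not tested. The labels do not give the hour at which each liver was taken, and the part of the clock in the spread was not tested.

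Library totals also differed along the same livers. GDF15 libraries 1 to 3 held 21050932 to 25001486 counts and libraries 4 to 6 held 16508864 to 19108435, and the part of the totals in the spread was not tested. Most stellate cell and macrophage markers were lower with GDF15 in both comparisons, and cholangiocyte markers were lower against vehicle. All 6 stellate cell markers fell against vehicle (5 of 6 against pair-fed), with summed levels of 3383 to 4976 normalized counts in GDF15 livers, 6838 to 12111 in vehicle livers and 6059 to 9847 in pair-fed livers. For macrophage markers 5 of 6 fell against vehicle (4 of 6 against pair-fed), with sums of 2755 to 5602, 4192 to 8432 and 4092 to 6698. All 4 cholangiocyte markers fell against vehicle and 0 of 4 passed against pair-fed, while 1 of 4 endothelial markers (Clec4g) rose against vehicle. Of 6 adipocyte markers, Fabp4 and Cfd fell in both comparisons. Summed hepatocyte markers were 2090680 to 2441140 in GDF15 livers, above all vehicle livers (1500880 to 1882680) and all pair-fed livers (1370410 to 2060130). Alb made up most of these sums, with means of 1646870 in GDF15, 1231860 in vehicle and 1237370 in pair-fed livers. The share of all genes without overlap is not given here. The part of these shifts in the difference in Mlxipl was not tested. The scaling to hepatocyte markers given above lowered all genes nearly alike, so it cannot test that part.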

How the data were processed

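Liver RNA of 18 mice was sequenced from directional libraries. Per the labels and the study's methods, the authors trimmed reads with Trim Galore, quantified them with Salmon on mm10 and deposited gene-level estimated counts of all samples, as whole numbers without scaling (versions are not given in the sources used here). Salmon divides reads among similar transcripts. The table holds 16245 genes with row totals of at least 5. Groups and replicate numbers came from sample titles. Mice were housed singly, and no batch is given.

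Counts were fitted with DESeq2 1.42.0 (R 4.3.3) over all 18 samples with group as the factor, a Wald test and Benjamini-Hochberg adjustment, with the threshold at 0.05. The study used DESeq2 too, but for liver also required an absolute log2 fold change above 1, a stricter rule under which Mlxipl is not called. Fold changes were not shrunken. Spread was tested by exact permutation and relations by permutation, with numpy 2.4.6. The procedures were tested on simulated data. For the spread test, the simulation used independent genes and a larger difference in spread than any of the 10 members showed. It does not show how that test performs on these data. Alternatives included edgeR 4.0.16 and limma 3.58.1. Coordinates came from GENCODE M21 and promoters from RefSeq, both on GRCm38. The floor of 3 counts is 0.085 to 0.182 CPM and covers counting error only. Named genes were the 10 members, genes of 8 pathway lists and of cell markers, and the 8 genes most alike in deviation. The members, lists and tests were chosen with earlier results of these data known. The markers Tf and Lep were not analysed here. Results of some genes of the glucose and fructose entry list are not reported here.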

Additional observations from a re-analysis of the deposited data

Results flagged for a closer look

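In each of the 30 sets of 6 livers (10 genes in 3 groups), the gap between the most extreme liver and its neighbour was compared with the range of the group. Pair-fed liver 1 stood apart for Elovl6, with 7677 normalized counts against 4635 to 5513 in the other pair-fed livers, a gap of 0.711 of the range. Chance flags about 1 in 20 such sets, so 1 of 30 is no more than chance gives. Without that liver, the Elovl6 difference between GDF15 and pair-fed livers was 0.036 instead of −0.088, and neither passed the test.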

How the results depend on the processing

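The Mlxipl call against vehicle and against pair-fed livers held under 27 other settings, with log2 fold changes of 0.45 to 0.61 (highest adjusted p = 0.00275, edgeR) and 0.42 to 0.55 (highest adjusted p = 0.00851, limma). The call was lost with the hepatocyte marker size factors described below and with the added rule of an absolute log2 fold change above 1. The number of the 10 genes called against vehicle was 2 when only 12 samples were fitted (Srebf1 added) and 1 to 3 when 1 liver was left out (Acacb and Thrsp added without vehicle liver 3, Acacb without GDF15 liver 1, Scd1 without vehicle liver 5, GDF15 liver 4 or GDF15 liver 6). It was 0 in both GDF15 comparisons with an absolute log2 fold change above 1, where 920 and 484 genes were called. For pair-fed against vehicle, 3 genes were called with 12 samples, 3 with the replicate block and 0 to 2 when 1 liver was left out, none of them among the 10 genes. The genes called without 1 liver were 1 without vehicle liver 3, vehicle liver 6 or GDF15 liver 4 and 2 without pair-fed liver 1.

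With hepatocyte marker size factors, added after seeing the data, 10394 genes were called against vehicle (210 higher, 10184 lower, compared with 2323 and 2562) and 10763 against pair-fed (137 higher, 10626 lower, compared with 1911 and 1983). The 10 genes gave 1 call against vehicle, now Scd1, and 5 against pair-fed. That scaling lowers every gene nearly alike (the median of all genes by about 0.43 against vehicle and 0.47 against pair-fed), so positive differences well below that shift were bound to turn negative. The difference from vehicle turned negative for Fasn (−0.28), Acaca (−0.30), Acacb (−0.083), Elovl6 (−0.32), Me1 (−0.26) and Srebf1 (−0.10), and that from pair-fed livers for Acaca (−0.49), Acacb (−0.18), Acly (−0.12), Me1 (−0.33) and Thrsp (−0.47).

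Differences near 0 changed sign elsewhere. Against pair-fed livers, Acaca was −0.046 and Thrsp −0.0095 with limma, and Acaca was −0.012 with the replicate block. When 1 liver was left out, ranges against vehicle were −0.032 to 0.30 for Fasn, −0.092 to 0.25 for Elovl6 and −0.011 to 0.27 for Me1. Against pair-fed they were −0.13 to 0.12 for Acaca, −0.31 to 0.036 for Elovl6, −0.043 to 0.24 for Me1, −0.22 to 0.0080 for Srebf1 and −0.14 to 0.14 for Thrsp. For pair-fed against vehicle they were −0.021 to 0.16 for Acacb, −0.027 to 0.10 for Me1 and −0.027 to 0.12 for Mlxipl. The ratio of GDF15 to vehicle SD ranged from 0.913 to 1.16 for Scd1, 0.939 to 1.43 for Srebf1 and 0.905 to 1.20 for Mlxipl, and was at least 1.46 for Fasn, Acaca, Acacb, Acly, Elovl6 and Me1. The number of regulator relations called was 1, and 9 with all 18 samples and 0 without the 2 farthest samples. The cause of these changes was not tested.

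Same-numbered livers did not all deviate together (mean correlations over 12882 genes of 0.0046 for vehicle with GDF15, 0.17 for vehicle with pair-fed and 0.025 for GDF15 with pair-fed, with 2, 3 and 3 of 6 pairs over 0.1), so the numbers were not taken as pairs. For vehicle with pair-fed the mean for other numbers was −0.035, below that for the same numbers. The replicate block changed no call among the 10 genes. With 6 livers per group the smallest p of the exact spread test is 0.00216, so a gene can pass an adjustment over 13207 genes only if many others reach that value too.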
